A study of Mus musculus with 10 samples.

Results

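The genes for the fat-digesting products of the pancreas were examined across 10 pancreas tail libraries: Pnlip, Pnliprp1, Pnliprp2, Clps, Cel and Pla2g1b. They were taken by symbol, and all 6 were found among the 24421 genes of the count table and passed the filter on low counts. The mice were females aged 12 weeks, with 1 RNA library per mouse. All carried Ptf1aCreER, a Cre recombinase that needs tamoxifen and is driven by Ptf1a, a gene of acinar cells, and the nTnG nuclear fluorescent reporter. The 3 mice labelled Insr WT (Insrw/w) had 0 floxed alleles of Insr, the gene of the insulin receptor, the 3 labelled Insr Het (Insrw/f) had 1 and the 4 labelled Insr KO (Insrf/f) had 2. Cre acts in cells that use Ptf1a, so the other cells of a tail piece keep Insr. The tamoxifen dose and its timing were not given in the sources used here. Libraries are named by group and mouse number, as in WT-2404. By its title, the series asks about the acinar insulin receptor in enzyme production and inflammation.

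Acinar cells make these proteins, store them in zymogen granules and release them into the duct when cholecystokinin signals a meal. Pnlip encodes pancreatic triglyceride lipase, the main enzyme that splits dietary triglycerides in the adult gut. Bile salts push this lipase off the fat droplet, and colipase, encoded by Clps, anchors it there. Pnliprp1 and Pnliprp2 encode relatives of the lipase. The first has little known lipase activity, and the second also acts on phospholipids and galactolipids and serves fat digestion in the suckling animal. Cel encodes carboxyl ester lipase, which needs bile salts and splits cholesterol esters and other esters. Pla2g1b encodes the pancreatic phospholipase A2, which is secreted as a proenzyme and activated by trypsin.

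The 3 lipase genes of the Pnlip family lie near one another on the plus strand of chromosome 19. In the GENCODE M21 annotation of GRCm38, Pnlip spans chr19:58652498-58681788, Pnliprp1 chr19:58728887-58744169 and Pnliprp2 chr19:58759719-58777534, with 47098 and 15549 bases between neighbours in the family. The same annotation places a long noncoding RNA gene and a transcribed pseudogene between Pnlip and Pnliprp2. Their longest reading frames share 69.1% (Pnlip and Pnliprp1), 69.3% (Pnlip and Pnliprp2) and 67% (Pnliprp1 and Pnliprp2) of aligned bases. Despite that kinship, 0% of the 50-base words of each of the 6 genes' transcripts occurred in transcripts of any other gene. Clps lies at chr17:28558149-28560766 on the minus strand and overlaps the microRNA gene Mir6969 on the same strand. Cel lies at chr2:28555795-28563403 on the minus strand and overlaps the antisense gene Gm13381. The sources used here do not say whether counting used strand, so whether reads of Gm13381 affected the Cel counts is not known. Pla2g1b lies at chr5:115466262-115474722 on the plus strand.

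The sequences before the starts of 3 genes are shown because these genes part ways in the libraries below: Pnlip, its neighbour Pnliprp1, which relative to the other enzymes was high in WT-2404 where Pnlip was low, and Cel, from another chromosome. RefSeq promoters (GRCm38.p6) matched 5 of the 6 genes, all but Clps. The 250 bases before the start are printed 5′ to 3′ in the gene's own direction. They are chr19:58670115-58670364 (plus strand) for Pnlip, chr19:58728637-58728886 (plus strand) for Pnliprp1 and chr2:28563404-28563653 (minus strand) for Cel. The RefSeq start of Pnlip lies inside the longer GENCODE span. Capitals mark matches on either strand to TATAAA (the TATA box), TTCCCA (the core read by RBPJ and RBPJL), AGATAA (the core of GATA factor sites), CACCTG (an E-box) and CAAGGTCA (an NR5A2 site).
Pnlip: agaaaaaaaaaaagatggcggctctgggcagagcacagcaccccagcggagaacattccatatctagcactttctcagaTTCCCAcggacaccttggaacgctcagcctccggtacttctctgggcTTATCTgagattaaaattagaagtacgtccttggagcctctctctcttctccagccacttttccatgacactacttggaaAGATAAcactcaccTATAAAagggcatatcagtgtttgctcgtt
Pnliprp1: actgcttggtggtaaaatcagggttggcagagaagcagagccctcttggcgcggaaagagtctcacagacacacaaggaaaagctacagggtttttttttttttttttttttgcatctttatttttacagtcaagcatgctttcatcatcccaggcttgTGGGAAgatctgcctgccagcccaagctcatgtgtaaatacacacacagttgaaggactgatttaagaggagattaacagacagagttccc
Cel: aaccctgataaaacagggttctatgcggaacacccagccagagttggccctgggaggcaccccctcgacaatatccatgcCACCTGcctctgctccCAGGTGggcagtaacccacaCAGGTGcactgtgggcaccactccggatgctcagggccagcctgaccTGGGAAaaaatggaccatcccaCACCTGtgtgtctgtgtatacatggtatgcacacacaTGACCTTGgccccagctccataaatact
The Pnlip window held TATAAA beginning 30 bases before the start, AGATAA 2 times and TTCCCA 1 time. The Pnliprp1 window, from the same gene cluster, held TTCCCA 1 time and none of the other 4 motifs. The Cel window held CACCTG 4 times, TTCCCA 1 time and CAAGGTCA 1 time, 28 bases before the start. Of the unprinted windows, that of Pnliprp2 held CACCTG 1 time and that of Pla2g1b none of the 5 motifs. Matches did not overlap one another in the printed windows. Among 32536 RefSeq promoter windows of the same length, 12.3% held TATAAA, 21.6% TTCCCA, 9.97% AGATAA, 17.3% CACCTG and 1.33% CAAGGTCA, so short matches are common. These are matches of letters, with no measurement of binding.

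Gene counts ranged from 11718559 to 19024351 per library. Insr, the targeted gene, stood at 29.8 ± 9.88 counts-per-million (CPM; SD, n = 3) in WT libraries. Het libraries held 38.5 ± 8.92 CPM (SD, n = 3) and KO libraries 31.5 ± 5.95 CPM (SD, n = 4). Its KO against WT log2 fold change of 0.09 (SE 0.26, edgeR adjusted p = 0.864) did not pass, and counts per gene cannot tell whether the floxed exon was lost in acinar cells. WT-2404 stood apart from all other libraries. Its factor for scaling the library size (TMM) was 3.53, against 0.596 to 1.56 elsewhere, and the other digestive enzymes took 12.7% of its counts, against 44.7% to 57.2% elsewhere. The spreads, the median fold changes against WT and the main ratios of the 6 genes are therefore given with and without it. Other group summaries, the gene lists and the cell markers include it. Each list of 8 markers summed to more in WT-2404 than in any other library for duct cells (1253 against 367 to 857 CPM), fibroblasts (4346 against 451 to 1840 CPM) and macrophages (1670 against 128 to 661 CPM). The islet markers summed to 470 CPM there, against 3026 to 9772 CPM elsewhere. None of those markers was at 0 in any library.

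Pnlip spanned the widest range of the 6 genes over all 10 libraries, though not without WT-2404. In the WT libraries its level was 1851 (WT-2404), 37228 (WT-1860) and 96271 CPM (WT-2067). In the Het libraries it was 110583 (Het-2066), 139994 (Het-1770) and 118057 CPM (Het-2042). In the KO libraries it was 120930 (KO-2079), 158971 (KO-2070), 64196 (KO-2124) and 185165 CPM (KO-2126). Every Het library thus lay above every WT library, while KO-2124 fell below WT-2067. That overlap depended on the TMM scaling. As a percent of gene counts Pnlip was at 8.73% in KO-2124, the lowest KO library, and at 8.46% in WT-2067, the highest WT library. The 3 WT libraries did not cluster at a common level, and WT-2404 and WT-2067 bounded a wide gap.

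Clps, the gene for the lipase's anchor, followed a like order. It stood at 895 (WT-2404), 18592 (WT-1860) and 31030 CPM (WT-2067) in WT. The Het libraries held 35728 (Het-2066), 48739 (Het-1770) and 34722 CPM (Het-2042), all above the WT libraries. The KO libraries held 32763 (KO-2079), 53464 (KO-2070), 20886 (KO-2124) and 47629 CPM (KO-2126), so KO-2124 again fell inside the WT range. Reads outside genes made up 8.71% of all counts in KO-2124, 7.83% in WT-2404 and 7.001% in WT-1860, the 3 libraries lowest in Pnlip and Clps, and 2.59% to 5.14% in the other 7. The part of these reads in the lipase levels was not tested.

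Pnliprp1 was the least depressed in WT-2404. It was at 4712 (WT-2404), 13592 (WT-1860) and 34883 CPM (WT-2067) in WT, and at 34963 (Het-2066), 45025 (Het-1770) and 32501 CPM (Het-2042) in Het. In KO it was at 36112 (KO-2079), 43555 (KO-2070), 18008 (KO-2124) and 53108 CPM (KO-2126). Both Het-2042 and KO-2124 lay below WT-2067, so the groups overlapped. The suckling-stage relative Pnliprp2 was counted far less, at 326, 1482 and 4444 CPM in WT-2404, WT-1860 and WT-2067. It ranged from 4134 to 5925 CPM in Het and from 2080 to 6693 CPM in KO libraries, overlapping WT in both.

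Cel stood at 1242 (WT-2404), 17110 (WT-1860) and 45335 CPM (WT-2067) in WT. It was at 39247 (Het-2066), 61887 (Het-1770) and 41560 CPM (Het-2042) in Het, and at 46095 (KO-2079), 60883 (KO-2070), 18664 (KO-2124) and 78803 CPM (KO-2126) in KO. WT-2067 thus lay above 2 of the 3 Het libraries and above KO-2124. The phospholipase gene Pla2g1b was at 31.7, 757 and 1277 CPM in WT-2404, WT-1860 and WT-2067, from 1068 to 2332 CPM in Het and from 534 to 2788 CPM in KO libraries. WT and Het overlapped for this gene, and so did WT and KO.

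**Figure D1:**
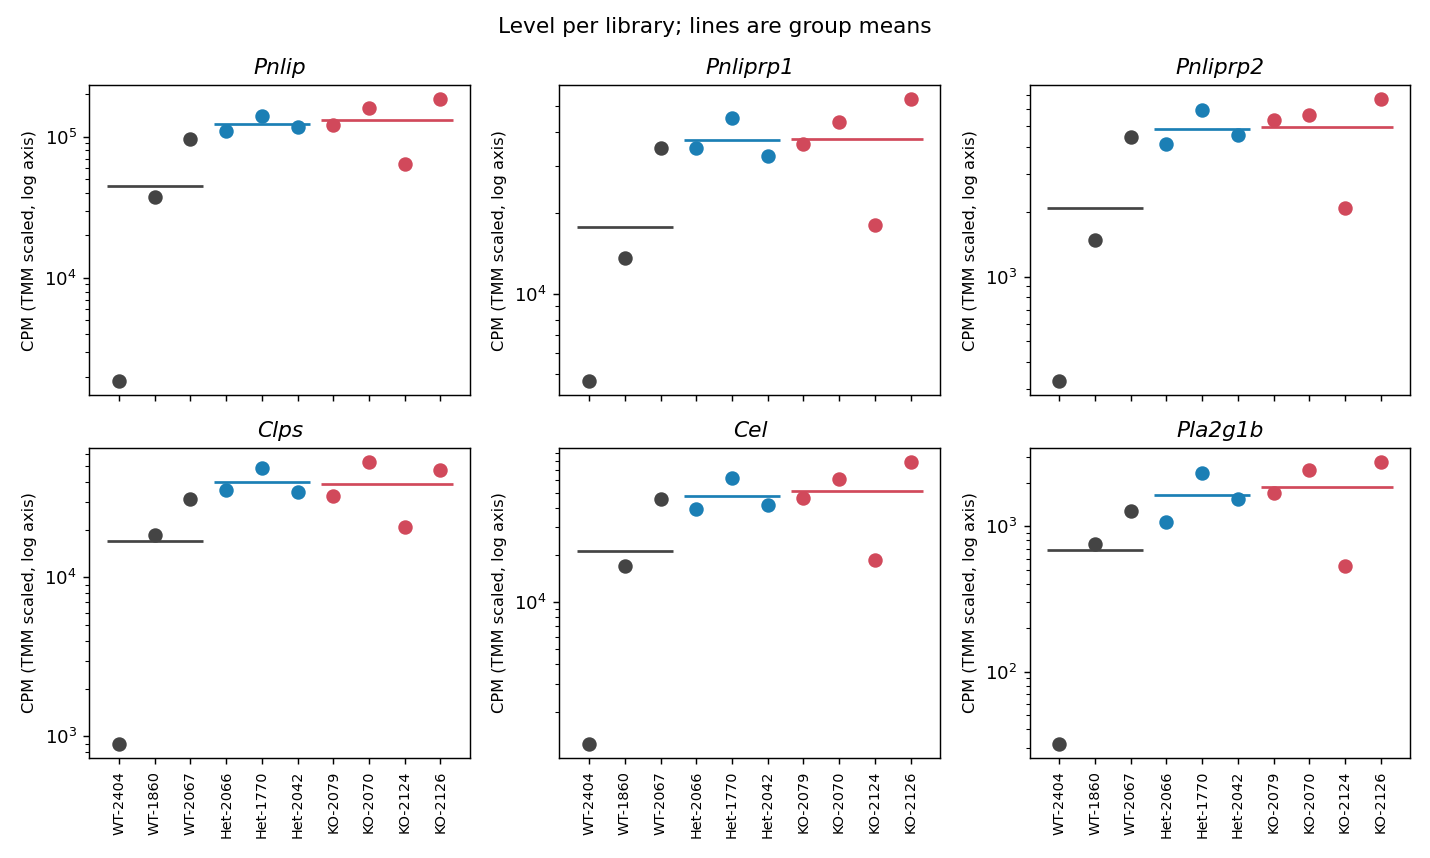
Each panel plots 1 gene's CPM (TMM scaled, log axis) in the 10 libraries, with group means as lines. WT-2404 is the lowest point in all 6 panels, KO-2124 is the lowest KO library in all 6, and Pnlip spans the widest range, from 1851 to 185165 CPM.

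Compared per length, colipase and lipase messages led. The median over the 10 libraries was 76880 CPM per kb of transcript for Pnlip and 55225 for Clps. Pnliprp1 (21571) and Cel (21060 CPM per kb) came next, and Pnliprp2 (2855) and Pla2g1b (2543 CPM per kb) were last. Pnlip exceeded Clps in 8 of 10 libraries and Clps exceeded Pnliprp1 in 9 of 10. Pnliprp1 exceeded Cel in only 4 of 10 libraries, and Pnliprp2 exceeded Pla2g1b in 6 of 10, so neither of these neighbours in the order was separated beyond the spread over mice. Cel exceeded Pnliprp2 in all 10. The order differed in WT-2404, where Pnliprp1 led at 2910 CPM per kb, above Clps at 1465 and Pnlip at 1245 CPM per kb.

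The 6 genes spread unequally over the libraries. The highest CPM over the lowest was 100.02-fold for Pnlip, 87.9-fold for Pla2g1b, 63.4-fold for Cel, 59.7-fold for Clps, 20.6-fold for Pnliprp2 and 11.3-fold for Pnliprp1. Without WT-2404 these spreads closed to 4.97-fold (Pnlip), 5.23-fold (Pla2g1b), 4.61-fold (Cel), 2.88-fold (Clps), 4.52-fold (Pnliprp2) and 3.91-fold (Pnliprp1). The gap between Pnlip and its neighbour Pnliprp1 therefore rested on WT-2404. These folds include the TMM scaling, whose factor was 3.53 in WT-2404 and 0.596 in KO-2126, and they narrow without it. As a percent of gene counts, Pnlip ran from 0.654% (WT-2404) to 11.04% (KO-2126). On that scale Pnliprp1 ran from 1.67% (WT-2404) to 3.21% (KO-2079). All 6 genes were lowest in that library, as were 16 of the 17 other digestive enzyme genes compared, each with a mean above 100 CPM. Among those 17 the median spread was 36.5-fold, and 3.70-fold without WT-2404. In bulk tissue, fewer acinar cells and less RNA per acinar cell cannot be told apart. The duct, fibroblast and macrophage markers that were high in WT-2404 moved with these lows, and their part was not tested.

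**Figure D2:**
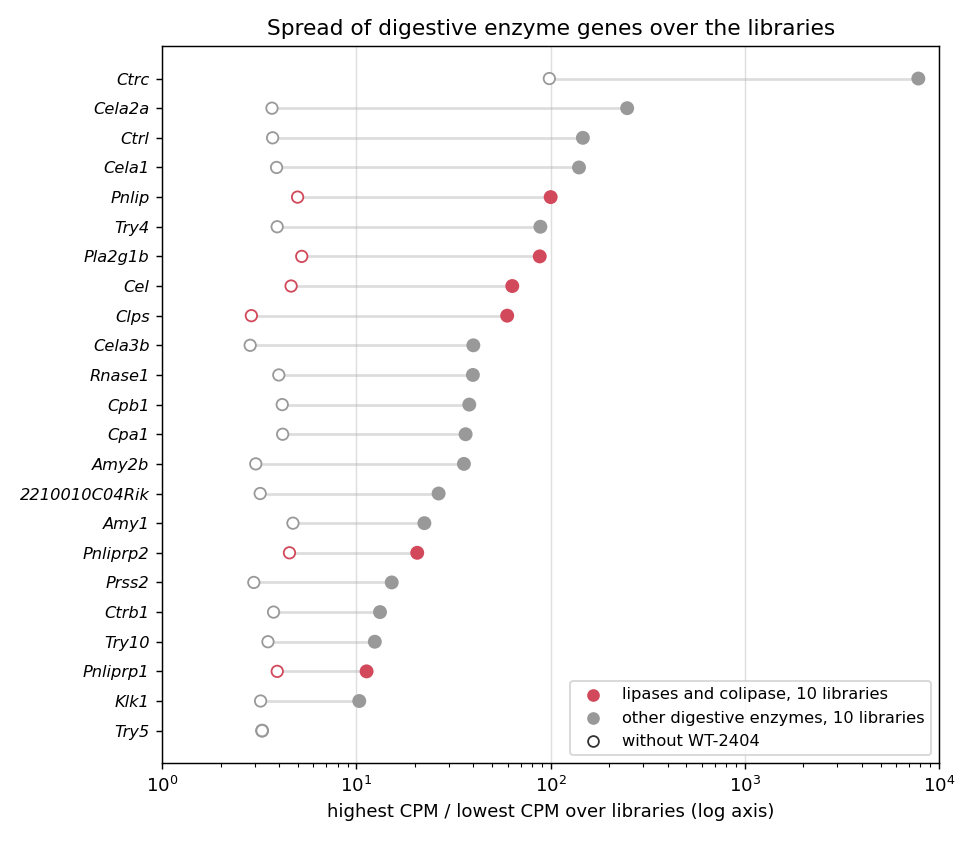
The highest over the lowest CPM (TMM scaled, log axis) is plotted for 23 digestive enzyme genes, with filled points for all 10 libraries and open points without WT-2404. The lipases and colipase (red) run from 11.3-fold for Pnliprp1 to 100.02-fold for Pnlip, and from 2.88-fold to 5.23-fold without WT-2404.

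In KO against WT libraries, all 6 genes had higher mean levels in KO, and none passed the test. A log2 fold change above 0 was found for 51.8% of all genes. The log2 fold changes were 1.55 for Pnlip (SE 1.05, 2.93-fold), 1.44 for Pla2g1b (SE 0.91), 1.27 for Cel (SE 0.97), 1.25 for Pnliprp2 (SE 0.73), 1.20 for Clps (SE 0.91) and 1.09 for Pnliprp1 (SE 0.75). Adjusted p-values from edgeR's quasi-likelihood test over 13688 genes were 0.306 for Pnliprp2 to 0.433 for Cel. With edgeR, 0 of 6 genes passed the threshold of 0.05, against a background of 0% of all genes. At an unadjusted p under 0.05 the count was 0 of 6, against 23.5% of all genes, and DESeq2 called 0 of 6, against 7.68% of all genes. Fold changes above 1 on the log2 scale were seen for 6 of 6, against 3.64% of all genes, with a median of 1.26 beside 0.03 over all genes. For Pnlip the 95% interval ran from -0.72 to 3.82, and held 0.

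The WT libraries set the size of that difference. Without WT-2404 the median log2 fold change of the 6 genes was 0.70, and Pnlip stood at 0.97. Without WT-2067 the median was 2.36 and Pnlip stood at 2.77. In that fit Pnliprp2 passed, with a log2 fold change of 2.46 and an edgeR adjusted p of 0.0413. It was among 1933 genes that passed there, where the main fit over all 10 libraries tested 13688, so passing was not particular to Pnliprp2. With library size alone in place of TMM, the median of all genes moved to -1.17 and the median of the 6 genes to 0.65, each gene still above 0. Exact permutation tests over the mice (two-sided) gave p = 0.0571 for Pnlip and for Clps, 0.114 for Cel, 0.143 for Pnliprp1 and Pnliprp2 and 0.171 for Pla2g1b, where 3 against 4 mice cannot go below 0.0286. No gene of the 6 had log2 CPM ranges apart between KO and WT, against 6.74% of all genes with ranges apart and higher in KO. For Pnlip this held with TMM scaling only, since its KO range lay just above WT as a percent of gene counts. The share of all genes with ranges apart on that scale was not counted.

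Het against WT libraries gave like sizes, with the WT libraries shared between both comparisons. The log2 fold changes ran from 1.08 for Pnliprp1 (SE 0.79) to 1.45 for Pnlip (SE 1.09), with a median of 1.23 beside 0.00466 over all genes. All 6 lay above 1, against 4.32% of all genes, where 50.3% lay above 0. With edgeR 0 of 6 genes passed (adjusted p from 0.362 for Pnliprp2 to 0.511 for Cel), against 0% of all genes. At an unadjusted p under 0.05 it was 0 of 6 against 19.8%, and DESeq2 called 0 of 6, against 3.46% of all genes. Pnlip and Clps, the enzyme and its cofactor, had Het ranges wholly above the WT ranges, which 11.3% of all genes also had. For each the exact permutation p was 0.1, the smallest that 3 against 3 mice allow. This separation was not particular to the pair. It was also seen for other digestive enzyme genes, among them Cela1, Cela3b, Klk1, Try10 and Amy2b, and for the granule genes Gp2, Zg16 and Vamp8. Further genes of both lists overlapped. Leaving out WT-2404 gave a median log2 fold change of 0.70, and leaving out WT-2067 gave 2.23.

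KO against Het libraries showed small differences with wide intervals. The log2 fold changes lay between -0.04 for Clps (95% interval -1.95 to 1.87) and 0.18 for Pla2g1b (95% interval -1.75 to 2.11). For Pnlip the value was 0.11, with an interval from -2.07 to 2.28, so differences of either sign were within the spread. With edgeR 0 of 6 genes passed, against 0% of all genes, and at an unadjusted p under 0.05 it was 0 of 6 against 0.752%. DESeq2 called 0 of 6, against 0% of all genes. The signs of these small values turned with single libraries: without KO-2126 the median of the 6 genes was -0.16, and without KO-2124 it was 0.28.

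**Figure D3:**
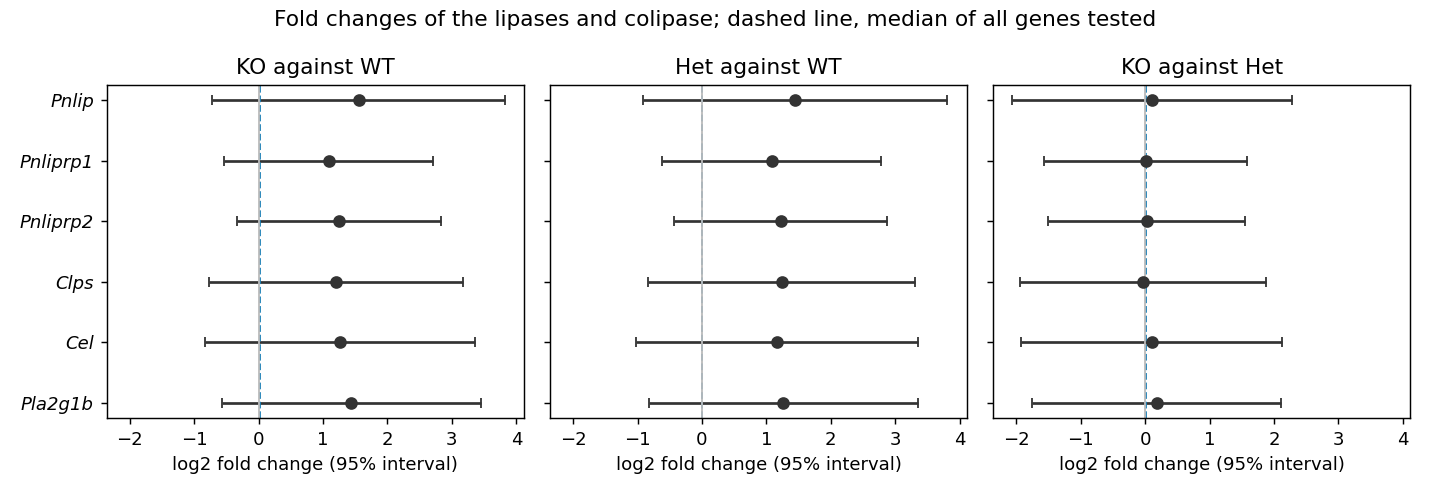
Log2 fold changes of the 6 genes from edgeR are plotted with 95% intervals for the 3 comparisons, and the dashed line marks the median of all genes tested. All points lie above 1 for KO and Het against WT and between -0.04 and 0.18 for KO against Het, and every interval crosses 0.

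The 6 genes were then set against the other enzymes of the same cells, by dividing each count by the summed counts of the other digestive enzyme genes. On this scale Pnlip was higher in every KO library than in any WT library. Its log2 ratio was -4.28 (WT-2404), -2.94 (WT-1860) and -2.65 (WT-2067) in WT. It was -2.53 in Het-2066, -2.68 in Het-1770 and -2.36 in Het-2042, and -2.20, -2.51, -2.39 and -2.33 in KO-2079, KO-2070, KO-2124 and KO-2126. The KO and WT ranges did not meet, whereas Het-1770 lay just below WT-2067. No gene of the 6 had Het ranges apart above WT, against 0.0219% of all genes and 1, Cela1, of the 28 digestive enzyme genes tested. The KO minus WT difference was 0.93 on the log2 scale (1.91-fold). Its exact permutation p was 0.0286, unadjusted over the 6 genes, and no smaller p is possible with 3 against 4 mice. Higher ranges apart were found for 4 of 13688 genes, a background of 0.0292%. Besides Pnlip they were the elastase gene Cela1 and, named only after their values were seen, Cyp2e1, a cytochrome P450, and Pdia2, a protein disulfide isomerase of the pancreas. The median log2 fold change of all genes was -2.62 on this scale, so few genes of any kind could lie higher in KO. Among the 28 digestive enzyme genes tested, the 6 included, 2 had KO ranges apart above WT, Pnlip and Cela1.

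The difference in Pnlip was smaller without WT-2404. It was then 0.44 on the log2 scale (1.36-fold), with ranges still apart. The exact permutation p was 0.0667, and 15 splits allow none smaller. In that setting 38 genes, 0.278% of all, had KO ranges apart above WT. They held 3 of the 28 digestive enzyme genes tested, Amy1, Cela1 and Pnlip. The ranges of Pnlip were also apart with 2 smaller parts of the same enzyme set as the divisor. The differences were 0.84 without trypsin genes and amylases and 0.74 without Ctrb1. The exact permutation p was 0.0286 with each, from the same mice and the same Pnlip counts. Without Ctrb1 the highest WT value was -2.28 and the lowest KO value -2.23. The edgeR test with the full set as the divisor gave a log2 fold change of 0.79 (SE 0.75, adjusted p = 0.312) and did not pass. It did not pass without trypsin genes and amylases (edgeR adjusted p = 0.393) or without Ctrb1 (edgeR adjusted p = 0.473). With edgeR 0 of 6 genes passed in KO against WT, against 68.5% of all genes, whose median was -2.62 on this scale. It was 0 of 6 in Het against WT, against 68.7%, and 0 of 6 in KO against Het, against 0%.

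The other 5 genes overlapped between KO and WT on this scale. Pnliprp1 had its highest value of all in WT-2404, at -2.93, while the other 9 libraries lay between -4.40 and -3.95. Its edgeR log2 fold change for KO against WT was -0.49 with all libraries and 0.09 without WT-2404. Pnliprp2 was also highest among WT libraries in WT-2404, at -6.79, against -7.60 in WT-1860 and -7.09 in WT-2067. Clps, Cel and Pla2g1b were lowest of all 10 libraries in WT-2404, at -5.33, -4.86 and -10.15. In WT-2404, relative to the other enzymes, Pnlip, Clps, Cel and Pla2g1b were thus low while both Pnlip relatives were not.

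**Figure D4:**
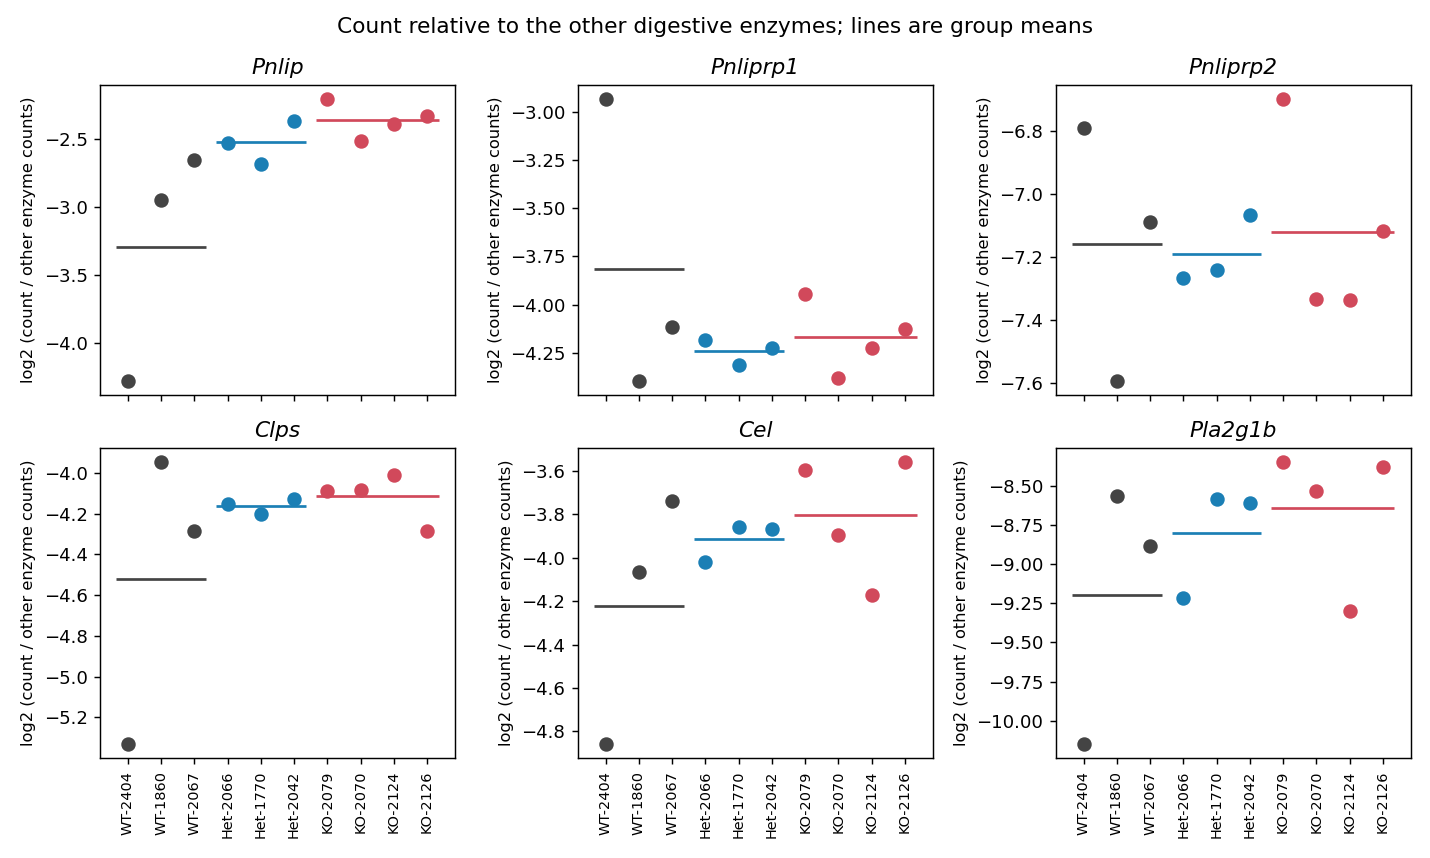
Each panel plots the log2 of 1 gene's count over the summed counts of the other digestive enzymes, by library, with group means as lines. For Pnlip all 4 KO libraries (-2.51 to -2.20) lie above the 3 WT libraries (-4.28 to -2.65), and for Pnliprp1 WT-2404 is the highest point.

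Together, the 6 genes accounted for 3.20% (WT-2404), 13.9% (WT-1860) and 18.7% (WT-2067) of gene counts, or 11.9% ± 7.94 (SD, n = 3). The Het libraries gave 19.4% ± 0.600 (SD, n = 3) and the KO libraries 20.3% ± 2.40 (SD, n = 4). With each library left out, the WT mean ran from 8.53% to 16.3%. The widest Wilson 95% interval of a library was 0.0456 percentage points, which covers counting error alone. As a share of all digestive enzyme counts, WT libraries gave 23.3% ± 3.01 (SD, n = 3), Het libraries 26.4% ± 1.21 (SD, n = 3) and KO libraries 28.1% ± 1.80 (SD, n = 4). WT-2067, at 26.1%, lay above Het-1770 at 25.3%, and below every KO library (26.4% to 30.4%).

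Within the 6 genes, Pnlip made up 20.4% (WT-2404), 41.9% (WT-1860) and 45.1% (WT-2067) of the summed counts. Its share was 46.1% to 50.7% in Het and 48.9% to 51.6% in KO libraries, all above WT. These shares use the same Pnlip counts as the ratios to Pnlip below. For such ratios 10.2% of all genes in KO and 53.8% in Het had lower ranges apart from WT. Pnliprp1 took 52.0% in WT-2404 and 13.4% to 16.4% in the other 9 libraries. WT-2404 was thus the 1 library in which the relative outnumbered the lipase itself, in counts and per kb.

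The count of Pnliprp1 over that of Pnlip was 2.55 (WT-2404), 0.365 (WT-1860) and 0.362 (WT-2067) in WT. It was 0.316, 0.322 and 0.275 in Het-2066, Het-1770 and Het-2042, and 0.299, 0.274, 0.280 and 0.287 in KO-2079, KO-2070, KO-2124 and KO-2126. All Het and KO libraries lay below all WT libraries. The KO minus WT difference was -1.29 on the log2 scale, with an exact permutation p of 0.0286, the smallest possible. Without WT-2404 it was -0.35, with the ranges still apart and an exact p of 0.0667. With Cel in place of Pnlip as the reference, the KO minus WT difference of Pnliprp1 was -0.77 (exact permutation p = 0.229) and the ranges overlapped, with KO libraries at 0.674 to 0.965 and WT libraries at 0.769 to 3.79. For the ratio to Pnlip, Het minus WT was -1.20 (exact permutation p = 0.1) and -0.26 without WT-2404.

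Cel over Pnlip followed the same direction. It was 0.671, 0.460 and 0.471 in WT-2404, WT-1860 and WT-2067, 0.355, 0.442 and 0.352 in Het-2066, Het-1770 and Het-2042, and 0.381, 0.383, 0.291 and 0.426 in KO-2079, KO-2070, KO-2124 and KO-2126. Again no Het or KO library reached a WT library. The KO minus WT difference was -0.52 on the log2 scale (exact permutation p = 0.0286), and -0.34 without WT-2404 (exact permutation p = 0.2). Het minus WT was -0.46 (exact permutation p = 0.1) and -0.29 without WT-2404. The ratios of Pnliprp2, Clps and Pla2g1b to Pnlip overlapped between the groups. All these ratios share the Pnlip counts, and lower ranges apart from WT were found for the ratio to Pnlip of 10.2% of genes in KO and 53.8% in Het. The p-values of the 15 ratio comparisons are unadjusted, and with 15 of them none at 0.0286 would pass a Benjamini-Hochberg threshold of 0.05.

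**Figure D5:**
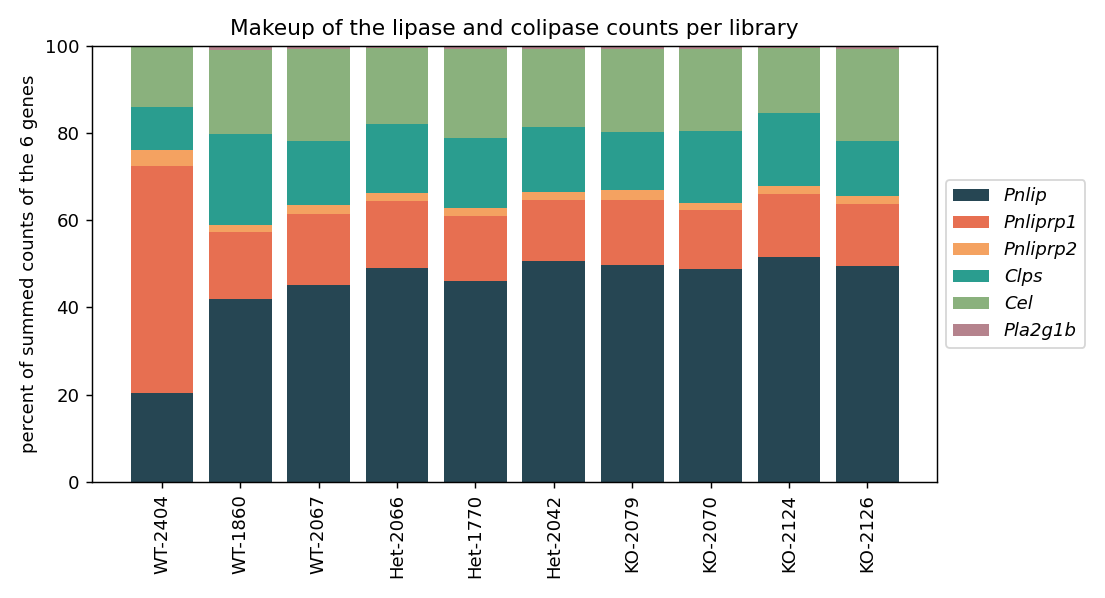
Stacked bars give each gene's percent of the summed counts of the 6 genes in each library. Pnliprp1 fills 52.0% of the WT-2404 bar against 13.4% to 16.4% elsewhere, and Pnlip fills 20.4% there against 41.9% to 51.6% elsewhere.

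Genes around the fat-digesting enzymes were read from the same edgeR fit. In KO against WT, the shares of all genes to set beside the counts below are 0% past edgeR's threshold, 23.5% at an unadjusted edgeR p under 0.05 and 7.68% called by DESeq2. Of 8 acinar transcription factor genes, 0 passed in KO against WT with edgeR or DESeq2, 1 had an unadjusted p under 0.05, and the median log2 fold change was 0.63 beside 0.03 over all genes. Ptf1a, the gene that drives the Cre, stood at 0.62 (SE 0.48), Rbpjl, its partner in the PTF1 complex, at 0.61 (SE 0.79) and Nr5a2, a nuclear receptor of acinar cells, at 0.76 (SE 0.41). Of 8 genes of the zymogen granule and its release, 0 passed with either tool, 1 had an unadjusted p under 0.05 and the median was 0.89. They included Gp2, the main granule membrane protein, at 1.51 (SE 0.68) and Cckar, the cholecystokinin receptor, at 0.80 (SE 0.45). Of the 22 other digestive enzyme genes tested 0 passed with edgeR and 1, Ctrc, with DESeq2, 1 had an unadjusted p under 0.05 and the median was 1.12, close to the 1.26 of the lipases and colipase.

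Of 17 genes of lipases that act elsewhere, in cells, blood or the stomach, and of their partners, 10 were tested and 0 passed with edgeR in KO against WT. The median was 0.35, and 1 gene in each direction had an unadjusted edgeR p under 0.05. These were Mgll and Lipa, which DESeq2 called. Mgll, the monoglyceride lipase gene, was at 33.5 CPM in WT and 59.9 CPM in KO libraries, with a log2 fold change of 0.84 (SE 0.27, edgeR adjusted p = 0.125) and ranges apart. Lipa, the lysosomal acid lipase gene, was at 30.9 and 12.9 CPM, with a log2 fold change of -1.25 (SE 0.38, edgeR adjusted p = 0.121). Lpl, for lipoprotein lipase, stood at 0.45 (SE 0.27). Of 15 other phospholipase A2 genes and their receptor 9 were tested, 0 passed with edgeR and 1, Pla2g15, with DESeq2, and the median was 0.21, beside 1.44 for Pla2g1b. The 3 with a log2 fold change below -1 were Pla2g4a at -1.39 (SE 0.53), Pla2g7 at -1.42 (SE 0.54) and Pla2g15 at -1.19 (SE 0.38), and each had an unadjusted edgeR p under 0.05, as did Pla2g6 at 0.55 (SE 0.24).

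Markers of other cells also differed in level between the groups. The macrophage markers summed to 421 to 1670 CPM in WT and 128 to 482 CPM in KO libraries, and the median log2 fold change of the 8 genes was -1.67 in KO against WT. None of the 8 passed with edgeR, all 8 had an unadjusted p under 0.05 (23.5% of all genes), and DESeq2 called 7 of 8 lower (7.68% of all genes in either direction). The duct markers summed to 770 to 1253 CPM in WT and 376 to 627 CPM in KO libraries, and the fibroblast markers to 1240 to 4346 and 451 to 1110 CPM. DESeq2 called 5 of 8 lower in each of these lists, and edgeR 0 of 8, with 6 duct and 5 fibroblast markers at an unadjusted p under 0.05. Islet markers summed to 470 to 5642 CPM in WT and 3567 to 8424 CPM in KO libraries, adipocyte markers to 38.7 to 51.9 and 51.4 to 95.5 CPM, endothelial markers to 71.5 to 109 and 73.1 to 146 CPM, and lymphoid markers to 37.5 to 67.5 and 7.17 to 40.6 CPM. Of the lymphoid markers 3 of 8 were at 0 in KO-2126. Their part in the values of the lipases and colipase was not tested.

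The genes whose log2 CPM tracked each gene most closely over the 10 libraries differed between the 6. For Pnlip the first were Gcat and Erp27, with Pearson r of 0.998 and 0.997. Clps went with Cela3b, Ctrl and Zg16 (0.997, 0.995 and 0.995) and Pla2g1b with Sycn, Cpa1 and Try4 (0.997, 0.995 and 0.994). Cel went with Chst2, Aqp12 and Cpa1 (0.998, 0.997 and 0.997). No digestive enzyme gene was among the closest 3 of Pnliprp1 or Pnliprp2. Pnliprp1 went with Bckdha, Bckdk and Bmp3 (0.996, 0.995 and 0.995), and Pnliprp2 with Bmp3, Chst2 and Edem2 (0.993, 0.991 and 0.989). Bckdha and Bckdk encode a subunit and the kinase of the branched-chain keto acid dehydrogenase. Without WT-2404 the r of these pairs lay between 0.935 (Clps and Zg16) and 0.992 (Pnlip and Gcat). All points share the libraries and their scaling, and these r are descriptions of the 10 libraries.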

How the data were processed

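Stranded mRNA libraries from frozen, pulverised pancreas tail pieces were sequenced, per the labels' protocols. The authors deposited whole-number counts per gene symbol, 1 column per mouse. The submitters' processing notes name DRAGEN, STAR, Cufflinks and mm10, with no versions or roles, and the counting annotation and strand setting are not given in the sources used here. Reads outside genes (2.59% to 8.71% of all counts) and ambiguous reads stayed out of library sizes. Within groups no 2 libraries agreed within sampling noise (chi-square per degree of freedom 24.6 to 1077). The labels count 1 more WT mouse, not analysed here. Another allele, shared by every group, and results that need 1 further gene, a planned divisor among them, are not reported here.

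Of 24421 genes, 13688 passed filterByExpr (minimum count 10). edgeR 4.0.16 (R 4.3.3; TMM, robust glmQLFit and glmQLFTest, two-sided) fitted all 10 libraries at once without covariates, with Benjamini-Hochberg adjustment over all genes and a threshold of 0.05. In simulated KO against WT counts, 99% of 200 genes changed by a log2 of 2 were called among 13242 genes, with 11 unchanged genes called. Apart from the set change, a simulated gene had the same mean in every library and independent noise, with no library like WT-2404. The simulation therefore cannot give the power for the 6 genes, whose SEs in KO against WT were 0.73 to 1.05. CPM used TMM-scaled library sizes, and log2 CPM a prior count of 2. For relative values the library size was the summed count of the other digestive enzymes. Single values were compared with exact permutation tests over mice (35 splits for 3 against 4, 20 for 3 against 3). Alternatives were DESeq2 1.42.0, its size factors, library size alone, another filter, 2 groups alone, other divisors and each library left out. Each mouse counted as 1 replicate. Named genes were the 6 genes, Insr, list genes and the 3 genes closest to each of the 6 by Pearson r, and Cyp2e1 and Pdia2 were named after their values were seen. The genes and lists were chosen with earlier results of these data known. Positions and transcript lengths came from GENCODE M21 (GRCm38, the build called mm10 in the notes) and promoters from RefSeq.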

Additional observations from a re-analysis of the deposited data

Results flagged for a closer look

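Pla2g1b took 0.429% of the summed counts of the 6 genes in KO-2124, while the other 3 KO libraries lay between 0.704% and 0.752%. The gap below the nearest library was above Dixon's 95% critical value for 4 samples. It was 1 of 19 measures examined in the KO group, where chance gives 0.95. KO-2124 was also the KO library with the lowest CPM of all 6 genes.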

How the results depend on the processing

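No paired analysis was possible because the mouse numbers are not shared between the groups. The count of the 6 genes that passed in KO against WT ran from 0 to 1 with each library left out, 1 being Pnliprp2 without WT-2067, and it was 0 under the other settings, as were the counts in Het against WT and KO against Het under all. Over all genes, DESeq2 called 1009 (KO against WT) and 400 (Het against WT), library size alone 2835 and 3125, and the fit without WT-2067 1933 and 1158. Library size alone moved the median of all genes by -1.17 and -1.36. The median of the 6 genes ran from 0.70 to 2.36 (KO against WT), from 0.70 to 2.23 (Het against WT) and from -0.16 to 0.28 (KO against Het) with each library left out.

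In KO against Het, the sign of single genes turned with libraries left out, with ranges of -0.10 to 0.31 for Pnlip, -0.20 to 0.21 for Pnliprp1, -0.16 to 0.25 for Pnliprp2, -0.24 to 0.14 for Clps, -0.18 to 0.35 for Cel and -0.081 to 0.51 for Pla2g1b. Pnliprp1 was at -0.0018 with DESeq2 and with its size factors. The cause was not tested.

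Relative to the other enzymes, Pnliprp2 in KO against WT turned to -0.090 without trypsin genes and amylases in the divisor and -0.20 without Ctrb1. With each library left out, KO against WT ran from -0.75 to 0.089 for Pnliprp1, from -0.17 to 0.22 for Pnliprp2 and from -0.0075 to 0.60 for Clps. Het against WT ran from -0.83 to 0.0083 for Pnliprp1, from -0.26 to 0.13 for Pnliprp2, from -0.056 to 0.55 for Clps, from -0.022 to 0.49 for Cel and from -0.060 to 0.61 for Pla2g1b. KO against Het ran from -0.069 to 0.17 for Pnliprp2.

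The Het share of the 6 genes was 18.6% of all counts in the table, reads outside genes included. The Pnliprp1 ratio in KO against WT was -0.77 (exact permutation p = 0.229) with Cel in place of Pnlip, and ran from -1.76 to -0.35 with each library left out, where the remaining splits cannot give a p under 0.05. With Cel as the reference the Pla2g1b ratio turned to 0.14 (KO against WT), 0.090 (Het against WT) and 0.054 (KO against Het), and the Clps ratio in Het against WT to 0.053. Ratios to Pnlip in KO against Het ran from -0.13 to 0.057 for Cel and from -0.21 to 0.21 for Pla2g1b with each library left out. Counting error was small at this depth, since the lowest count of the 6 genes was 1900.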
